A study of Mus musculus with 9 samples.

Results

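A group of 10 genes of ribosome stalling and ribosome-associated quality control was followed through RNA-seq counts of 3 mouse striatal cell lines.
They were Zfp598, Ascc3, Ascc2, Pelo, Hbs1l, Abce1, Ltn1, Nemf, Gtpbp1 and Gtpbp2, chosen by symbol from the 36410 genes of the count table. All 10 were listed once, and all 10 were among the 13508 genes that passed edgeR's filter on low counts. The immortalized lines derive from embryos of huntingtin (Htt, also called Hdh) knock-in mice of the C57/BL6 strain. Control cells (STHdhQ7/Q7) carry 7 glutamine repeats in Htt exon 1 on both alleles, HD-het cells (STHdhQ7/Q111) carry 7 on 1 allele and 111 on the other, and HD-homo cells (STHdhQ111/Q111) carry 111 on both. Each line gave 3 libraries. With 1 line per genotype, genotype and line cannot be told apart. Nothing in the labels says that the libraries came from separate cultures, so the p-values measure the spread between these libraries, which may be technical.

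When a ribosome stops within an mRNA, the ribosome behind it runs into it, and the collided pair is the signal for quality control. The ubiquitin ligase Zfp598 marks the small subunit of collided ribosomes, and the ASC-1 complex with Ascc3 and Ascc2 pulls the leading ribosome apart. Pelo with Hbs1l recognizes a ribosome whose decoding site is empty, and Abce1 splits it. The large subunit that still holds an unfinished chain is bound by Nemf, which adds a tail to the chain and brings in the ubiquitin ligase Ltn1. Gtpbp1 and Gtpbp2 are related GTPases linked to the resolution of stalled ribosomes, and in mice partial loss of Ltn1, or loss of Gtpbp2 together with a mutant arginine tRNA of the nervous system, leads to neurodegeneration.

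The libraries held from 29507665 to 41197931 counts, and 3 counts were worth from 0.0710 to 0.101 counts per megaread after normalization (CPM), a floor that covers counting error only. The variance between replicates differed by line. It was between 2.13 and 11.1 times that of counting alone for control cells and between 5.97 and 20.2 times for HD-het cells. For HD-homo cells it was between 21.5 and 37.7 times. The edgeR fit shares the spread of a gene over all 3 lines. Htt itself stood at 99.97 ± 6.00 CPM (SD, n = 3) for control cells, 62.3 ± 1.51 for HD-het cells and 20.2 ± 1.29 for HD-homo cells, which shows the lines apart but not their repeat length. Of 13 markers of striatal neurons, 9 were under 1 CPM in every library. Drd1 had 0 counts, Drd2 at most 1 count and Ppp1r1b at most 0.403 CPM, while Foxp1, Map2 and Tubb3 were present. The 4 endothelial markers were under 1 CPM, and the microglial Aif1 was at 0.

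Compared with control cells, 6 of the 10 genes were higher in HD-homo cells (Ltn1, Pelo, Abce1, Gtpbp1, Ascc3 and Ascc2) and 2 were lower (Nemf and Zfp598), by the quasi-likelihood test of edgeR with p adjusted over all tested genes by the Benjamini-Hochberg method and a threshold of 0.05. Of all tested genes, 29.6% were higher and 28.9% lower in that comparison. The median log2 fold change was 0.23 over the 10 genes and 0.0077 over all tested genes, and the median of its absolute value was 0.32 for both. The libraries of both lines did not overlap for 8 of the 10 genes, against 65.3% of all tested genes. Of 5 astrocyte markers, Slc1a3 moved with the HD-homo line, at between 12.4 and 17.7 CPM against at most 2.41 CPM in the other libraries, and the other 4 were under 1 CPM everywhere. What part Slc1a3 has in the results was not tested. In bulk RNA, fewer cells of a type and less RNA per cell cannot be told apart.

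In HD-het cells the pattern was different. Relative to control cells, 1 of the 10 genes was higher (Gtpbp2), against 33.8% of all tested genes, and 5 were lower (Nemf, Zfp598, Hbs1l, Abce1 and Gtpbp1), against 31.4%. Without control replicate 2, the count of genes called was 4 in place of 6, as Nemf and Zfp598 lost their call. The libraries of both lines did not overlap for 6 of the 10 genes, a share below the 74.0% of all tested genes. The median log2 fold change was -0.19 over the 10 genes and 0.025 over all tested genes. These 2 comparisons share the control libraries. Markers of other cell types differed between the lines too. The summed level of 5 mesenchymal markers was between 12788 and 14736 CPM in HD-het libraries. It was between 4617 and 5849 CPM in control libraries and between 6224 and 6794 CPM in HD-homo libraries. Col1a1 and Acta2 were the leading genes in control and HD-het libraries, and Col1a1 and Col1a2 in HD-homo libraries. Acta2 was between 57.7 and 116 CPM in HD-homo libraries and between 2056 and 2384 CPM in control libraries. Col1a1, Col3a1, Acta2 and Pdgfrb were higher in all HD-het libraries than in all others, and Col1a2 went the other way, with between 2.70 and 3.54 CPM in HD-het, between 68.1 and 80.2 CPM in control and between 1411 and 1556 CPM in HD-homo libraries. The part of these markers in the results was not tested. The 6 microglial markers summed to between 42.8 and 52.8 CPM in HD-het libraries and to at most 15.6 CPM in the others. Most of this sum was Tmem119, at between 41.8 and 51.3 CPM in HD-het libraries. Csf1r was highest in HD-homo libraries, at between 1.63 and 2.36 CPM, against at most 0.761 CPM in the others. The remaining 4 were under 1 CPM in every library.

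Set against HD-het cells directly, HD-homo cells had more mRNA of 7 of the 10 genes (Ltn1, Pelo, Hbs1l, Abce1, Gtpbp1, Ascc3 and Ascc2) and less of 1 (Gtpbp2). The background was 36.0% of all tested genes higher and 35.6% lower. The libraries of these lines did not overlap for the same 8 genes, against a background of 72.8%. A further contrast asked whether HD-het cells lay midway between both homozygous lines on the log2 scale. The same 7 genes lay below that midpoint, against 33.4% of all tested genes, and Gtpbp2 lay above it, against 36.8%. The contrast contains the difference between both HD lines, so the same 7 genes are not an independent result. For Ltn1, Pelo, Ascc3 and Ascc2, HD-het and control cells did not differ by the threshold (edgeR adjusted p = 0.154, 0.491, 0.306 and 0.179). The share of 7 in 10 is above the background, and the difference between these shares was not tested.

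**Figure D1:**
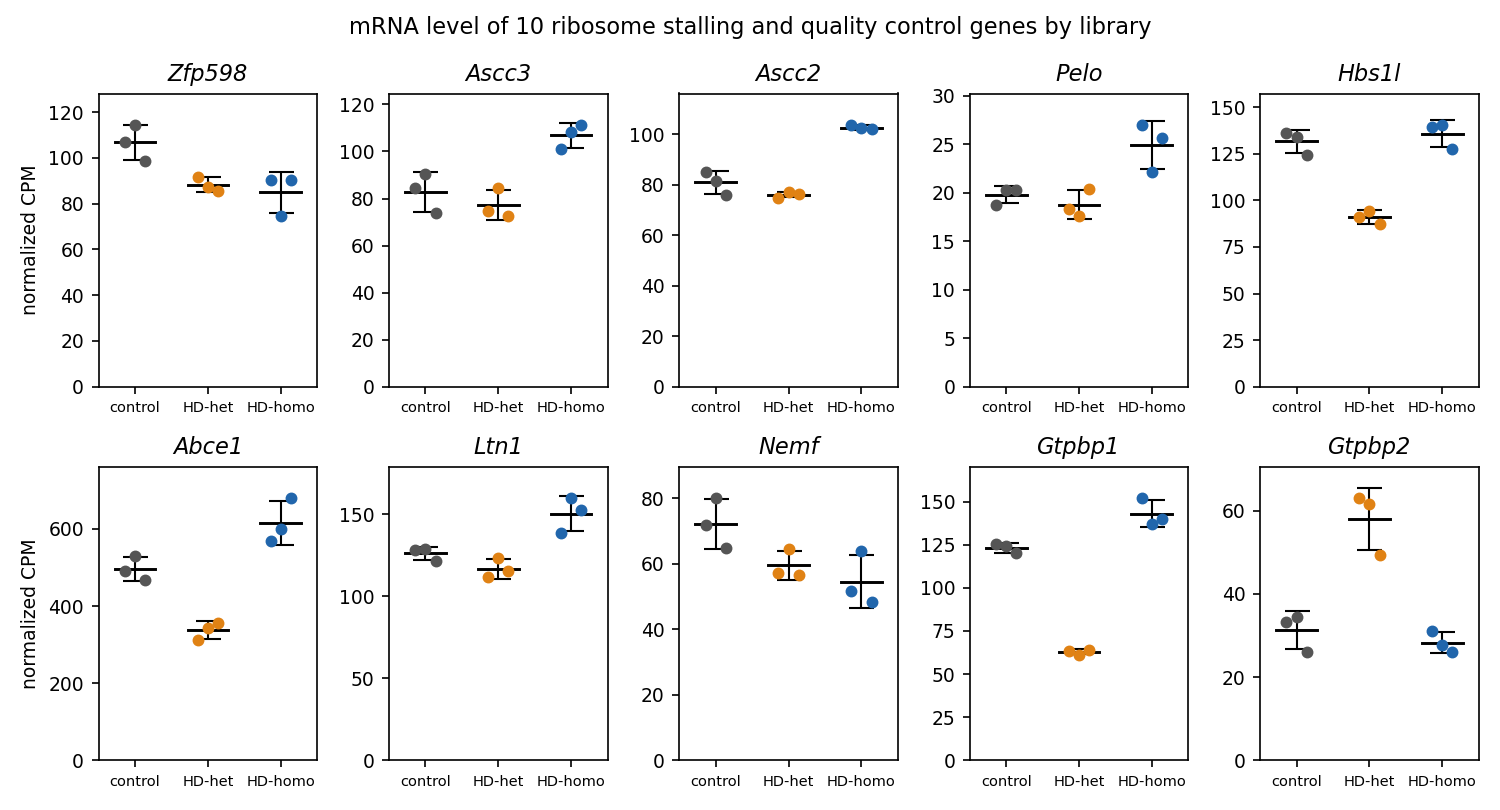
Normalized CPM (y axis, from 0) of each gene in the 3 control, 3 HD-het and 3 HD-homo libraries (x axis), with points for libraries and bars for the mean ± SD. Gtpbp1, Hbs1l and Abce1 are lowest in HD-het cells, and Gtpbp2 is highest there.

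**Figure D2:**
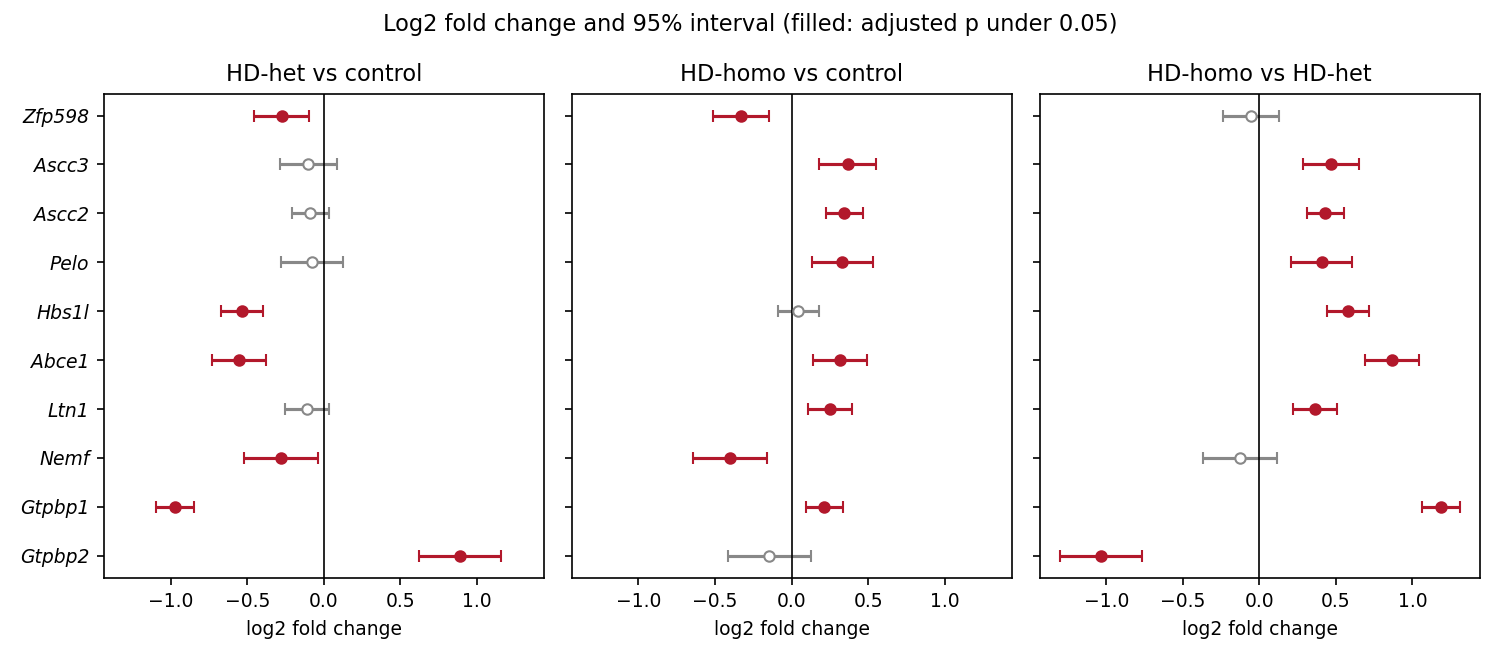
Log2 fold change (x axis) of the 10 genes (y axis) in 3 comparisons, with 95% confidence intervals from the edgeR fit. Filled points passed an adjusted p of 0.05, and the 4 genes with the farthest points from 0 between HD-homo and HD-het cells are Gtpbp1, Gtpbp2, Abce1 and Hbs1l.

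Both GTPases had the largest fold changes of the 10 genes in HD-het cells, in opposite directions. Gtpbp1 is encoded on chromosome 15 of the mouse genome build GRCm38 (plus strand, 79690845 to 79721479). Its transcript of 12 exons encodes 668 amino acids. The antisense gene Gm26884, which was not counted, covers 6.35% of the Gtpbp1 exon bases. The part of Gm26884 reads in the Gtpbp1 count was not tested. Gtpbp1 was at 125, 124 and 120.1 CPM in the control libraries, at 63.3, 61.3 and 64.0 CPM in the HD-het libraries and at 152, 137 and 139.9 CPM in the HD-homo libraries. All HD-het libraries lay far below all others, and all HD-homo libraries lay above the control libraries. Gtpbp1 was 1.96-fold below the control level in HD-het cells, for a log2 fold change of -0.97 (SE 0.0562, edgeR adjusted p = 1.06e-07). It was 1.16-fold above the control level in HD-homo cells (log2 fold change 0.21, SE 0.0552, edgeR adjusted p = 0.00611). The log2 fold change from HD-het to HD-homo cells was 1.19 (SE 0.0563, edgeR adjusted p = 9.69e-09).

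Gtpbp2 is encoded on chromosome 17 (plus strand, 46161032 to 46169370), with 13 exons and 604 amino acids. It was at 33.3, 34.5 and 26.0 CPM in the control libraries, at 63.0, 61.5 and 49.3 CPM in the HD-het libraries and at 31.1, 27.8 and 26.0 CPM in the HD-homo libraries. The HD-het libraries were high, and the other 2 lines overlapped. Gtpbp2 was 1.85-fold above the control level in HD-het cells (log2 fold change 0.89, SE 0.123, edgeR adjusted p = 7.03e-05). HD-homo cells were 2.05-fold below HD-het cells, with a log2 fold change of -1.03 (SE 0.123, edgeR adjusted p = 1.62e-05). HD-homo and control cells differed by a log2 fold change of -0.14 with a 95% interval from -0.42 to 0.13 (edgeR adjusted p = 0.341), and this difference passed the threshold (edgeR adjusted p = 0.0286) when replicate 3 of control and of HD-het cells were both left out.

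A ratio of read counts within each library does not depend on library normalization. The Gtpbp2/Gtpbp1 ratio was 0.253 ± 0.0324 (SD, n = 3) for control cells, 0.923 ± 0.132 for HD-het cells and 0.198 ± 0.0101 for HD-homo cells. Lengths were those of 1 transcript per gene, the one with the longest coding sequence, out of 9 annotated for Gtpbp1 and 17 for Gtpbp2. Per kilobase of these transcripts the ratios were 0.337, 1.23 and 0.264. By this measure Gtpbp1 mRNA was the more abundant of the pair in both homozygous lines and Gtpbp2 mRNA in HD-het cells. The order in HD-het cells depends on these lengths, as the unscaled mean of 0.923 lay below 1. The log2 difference between HD-het and control cells was 1.86, and -2.21 separated the HD lines. No libraries of any pair of lines overlapped (two-sided exact permutation test with p = 0.10, the lowest value possible with 3 against 3 libraries, and 0.167 after Benjamini-Hochberg adjustment over the 15 ratio tests).

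**Figure D3:**
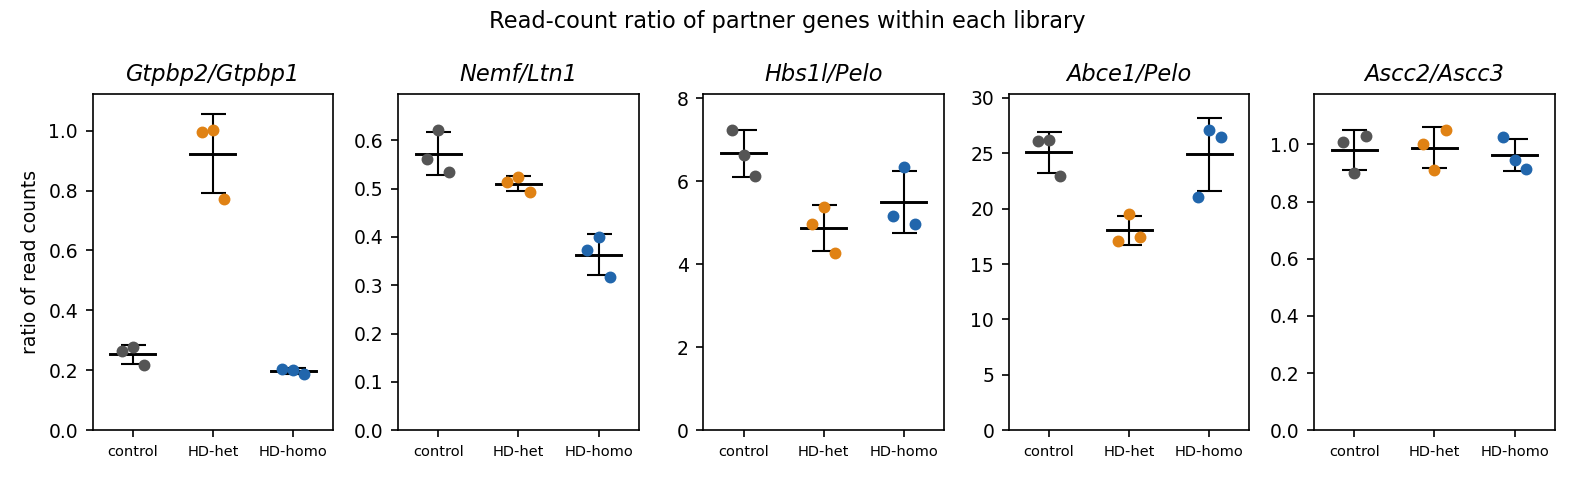
Ratio of the read counts of partner genes (y axis, from 0) in each library of the 3 lines (x axis), with the mean ± SD. Gtpbp2/Gtpbp1 is near 1 in HD-het cells and near 0.2 in HD-homo cells, while Ascc2/Ascc3 is near 1 in all 3 lines.

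The rescue factors Hbs1l, Abce1 and Pelo all passed the test between both HD lines, with the HD-homo level above, and against control cells their calls differed. Hbs1l, the GTPase that delivers Pelo to the ribosome, is encoded on chromosome 10 (plus strand, 21295979 to 21368898), with 18 exons and 682 amino acids. It was at 136, 134 and 125 CPM in the control libraries, at 91.2, 94.4 and 87.2 CPM in the HD-het libraries and at 139, 141 and 127 CPM in the HD-homo libraries. Only the HD-het libraries stood apart. Hbs1l was 1.45-fold below the control level in HD-het cells (log2 fold change -0.53, SE 0.0615, edgeR adjusted p = 1.82e-05). It was 1.49-fold above the HD-het level in HD-homo cells (log2 fold change 0.58, SE 0.0615, edgeR adjusted p = 6.49e-06). HD-homo cells differed from control cells by 0.045 on the log2 scale, with a 95% interval from -0.089 to 0.18 (edgeR adjusted p = 0.548). Of the 50-base words of its transcript, 13.8% also occur in other annotated genes, Gm9923 among them. The antisense gene 4930455C13Rik had 0 counts in all 9 libraries.

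Abce1, the ATPase that separates the ribosomal subunits after termination or rescue, is encoded on chromosome 8 (minus strand, 79683462 to 79711740), with 18 exons and 599 amino acids. It was at 491, 529 and 467 CPM in the control libraries, at 313, 344 and 356 CPM in the HD-het libraries and at 568, 600.4 and 679 CPM in the HD-homo libraries. The 3 lines did not overlap in any pair. Abce1 was 1.47-fold below the control level in HD-het cells (log2 fold change -0.55, SE 0.0805, edgeR adjusted p = 1.04e-04). It was 1.24-fold above the control level in HD-homo cells (log2 fold change 0.31, SE 0.0802, edgeR adjusted p = 0.00594). The difference between both HD lines was 1.82-fold, a log2 fold change of 0.87 (SE 0.0808, edgeR adjusted p = 2.26e-06).

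Pelo is encoded on chromosome 13 (minus strand, 115088355 to 115090186), with 2 exons and 385 amino acids. It was at 18.8, 20.2 and 20.3 CPM in the control libraries, at 18.3, 17.6 and 20.4 CPM in the HD-het libraries and at 27.0, 22.1 and 25.6 CPM in the HD-homo libraries. The HD-homo libraries lay above all others, while control and HD-het libraries overlapped. Pelo was 1.26-fold above the control level in HD-homo cells (log2 fold change 0.33, SE 0.0908, edgeR adjusted p = 0.0086). It was 1.33-fold above the HD-het level in HD-homo cells (log2 fold change 0.41, SE 0.0908, edgeR adjusted p = 0.0018). HD-het cells differed from control cells by -0.075 on the log2 scale, with a 95% interval from -0.28 to 0.13 (edgeR adjusted p = 0.491). In the contrast of HD-het cells with the midpoint, Pelo had a log2 value of -0.24 (edgeR adjusted p = 0.0182), a call that was lost without HD-het replicate 1 (edgeR adjusted p = 0.0702) or without HD-het replicate 2 (edgeR adjusted p = 0.0879).

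The Pelo count is the least certain of the 10. The gene lies within the span of Itga1, an integrin gene on the same strand, with 0 shared exon bases, and 41.5% of the 50-base words of its transcript also occur in the annotated gene Gm49395, which has no row of its own in the table. The antisense gene Gm10734, also without a row, covers 29.2% of its exon bases. Itga1 was at 2.21 ± 0.570 CPM (SD, n = 3) for control cells, 37.6 ± 10.6 for HD-het cells and 3.58 ± 1.53 for HD-homo cells. The part of Itga1, Gm49395 or Gm10734 reads in the Pelo count was not tested. The Hbs1l/Pelo ratio was 6.67 ± 0.558 (SD, n = 3) for control cells, 4.87 ± 0.556 for HD-het cells and 5.50 ± 0.749 for HD-homo cells. The Abce1/Pelo ratio was 25.1 ± 1.84 for control cells, 18.0 ± 1.33 for HD-het cells and 24.9 ± 3.33 for HD-homo cells. For both ratios the HD-het libraries lay below the control libraries without overlap (two-sided exact permutation test, p = 0.10 each, and 0.167 after adjustment).

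Both subunits of the disassembly complex were higher in HD-homo cells. Ascc3, the helicase of the ASC-1 complex, is encoded on chromosome 10 (plus strand, 50592669 to 50851485), with 42 exons and 2198 amino acids. It was at 84.4, 90.5 and 73.7 CPM in the control libraries, at 74.6, 84.5 and 72.5 CPM in the HD-het libraries and at 101, 108 and 111 CPM in the HD-homo libraries. Ascc2, its ubiquitin-binding partner, is encoded on chromosome 11 (plus strand, 4637747 to 4685699), with 20 exons and 749 amino acids. It was at 85.1, 81.5 and 75.9 CPM in the control libraries, at 74.9, 77.0 and 76.3 CPM in the HD-het libraries and at 104, 102 and 102 CPM in the HD-homo libraries. For both genes every HD-homo library lay above every other library, and control and HD-het libraries overlapped.

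Ascc3 was 1.29-fold above the control level in HD-homo cells (log2 fold change 0.37, SE 0.0842, edgeR adjusted p = 0.00312), and Ascc2 was 1.27-fold higher (log2 fold change 0.34, SE 0.0550, edgeR adjusted p = 2.62e-04). Against HD-het cells the log2 fold changes were 0.47 for Ascc3 (edgeR adjusted p = 4.02e-04) and 0.43 for Ascc2 (edgeR adjusted p = 2.8e-05). HD-het cells differed from control cells by -0.10 for Ascc3, with a 95% interval from -0.29 to 0.084, and by -0.088 for Ascc2, with an interval from -0.21 to 0.033. The Ascc2/Ascc3 ratio was 0.980 ± 0.0690 (SD, n = 3) for control cells, 0.989 ± 0.0715 for HD-het cells and 0.962 ± 0.0568 for HD-homo cells, and the libraries overlapped in all 3 comparisons.

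Zfp598, which acts before the ASC-1 complex, moved the other way. It is encoded on chromosome 17 (plus strand, 24669687 to 24682016), with 12 exons and 908 amino acids. It was at 107, 114 and 98.7 CPM in the control libraries, at 91.8, 87.1 and 85.5 CPM in the HD-het libraries and at 90.2, 74.7 and 90.1 CPM in the HD-homo libraries. Both HD lines lay below all control libraries and overlapped each other. Zfp598 was 1.26-fold below the control level in HD-homo cells (log2 fold change -0.33, SE 0.0822, edgeR adjusted p = 0.00518). In HD-het cells it was 1.21-fold lower (log2 fold change -0.28, SE 0.0822, edgeR adjusted p = 0.0117), and this call was lost without control replicate 2 (edgeR adjusted p = 0.0561). From HD-het to HD-homo cells the log2 fold change was -0.053, with a 95% interval from -0.23 to 0.13. Without HD-homo replicate 2, the lowest library, that difference was 0.035, and HD-het cells then lay below the midpoint (edgeR adjusted p = 0.0274, against 0.183 with all libraries).

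The partners on the large subunit went in opposite directions in HD-homo cells. Ltn1, the ubiquitin ligase that marks the unfinished chain, is encoded on chromosome 16 (minus strand, 87376651 to 87432612), with 30 exons and 1767 amino acids. It was at 128, 129 and 121 CPM in the control libraries, at 112, 123 and 115 CPM in the HD-het libraries and at 139, 159.6 and 152 CPM in the HD-homo libraries. The HD-homo libraries lay above all others. Ltn1 was 1.19-fold above the control level in HD-homo cells (log2 fold change 0.25, SE 0.0650, edgeR adjusted p = 0.00607), and its log2 fold change against HD-het cells was 0.36 (edgeR adjusted p = 3.83e-04). HD-het and control libraries overlapped, with a log2 fold change of -0.11 and a 95% interval from -0.25 to 0.032 (edgeR adjusted p = 0.154).

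Nemf is encoded on chromosome 12 (minus strand, 69310522 to 69357165), with 33 exons and 1064 amino acids. It was at 71.8, 80.0 and 64.8 CPM in the control libraries, at 57.3, 64.6 and 56.7 CPM in the HD-het libraries and at 51.6, 63.8 and 48.3 CPM in the HD-homo libraries. All HD libraries lay below all control libraries, by a narrow gap, and the HD lines overlapped each other. Nemf was 1.32-fold below the control level in HD-homo cells (log2 fold change -0.40, SE 0.109, edgeR adjusted p = 0.00816). In HD-het cells it was 1.21-fold lower (log2 fold change -0.28, SE 0.109, edgeR adjusted p = 0.0417). That call was lost without control replicate 1 (edgeR adjusted p = 0.0821) or 2 (0.167), without HD-het replicate 1 (0.12) or 3 (0.112), and without replicate 3 of both lines (0.0668). Between the HD lines the log2 fold change of -0.12 did not pass (95% interval from -0.36 to 0.12, edgeR adjusted p = 0.325), and it passed without HD-homo replicate 2 (edgeR adjusted p = 0.0318).

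Nemf shares 166 exon bases with the antisense gene Klhdc2, which is 1.57% of its exon bases. Klhdc2 was also lower, with log2 fold changes against control cells of -0.53 (HD-homo) and -0.31 (HD-het) (edgeR adjusted p = 4.51e-06 and 2.5e-04). Whether counting used the strand is not stated in the sources used here, and the part of Klhdc2 reads in the Nemf count was not tested. The Nemf/Ltn1 ratio was 0.572 ± 0.0451 (SD, n = 3) for control cells, 0.510 ± 0.0159 for HD-het cells and 0.363 ± 0.0425 for HD-homo cells. The 3 lines did not overlap, and the log2 difference from control to HD-homo cells was -0.66 (two-sided exact permutation test, p = 0.10, and 0.167 after adjustment).

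Divided by the length of the transcript with the longest coding sequence, the levels of the 10 genes spanned a wide range. Abce1 was the most abundant in all 3 lines, at 131 CPM per kilobase for control cells, 89.0 for HD-het cells and 162 for HD-homo cells, above 96%, 94% and 97% of the tested genes with a known length. Hbs1l was next in all 3 lines, at 48.2, 33.3 and 49.7 CPM per kilobase. At the low end of control cells, Gtpbp2 (12.1 CPM per kilobase) overlapped both Pelo (12.4) and Ascc3 (10.7), so its place is not resolved, while all Pelo libraries lay above all Ascc3 libraries. Gtpbp2 ranked 9 of 10 there, 5 in HD-het cells at 22.4 CPM per kilobase and 10 in HD-homo cells at 10.9, where its libraries overlapped those of Nemf. Gtpbp1 ranked 3 in both homozygous lines, at 35.7 and 41.5 CPM per kilobase, and 6 in HD-het cells at 18.2.

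Of the 10 promoters, 5 hold the core of the cAMP response element, the letters TGACGT on either strand, within 250 bases before the RefSeq start site. They are those of Zfp598, Pelo, Hbs1l, Abce1 and Ascc3. The same letters occur in 6.56% of 27025 RefSeq promoters and in 9.93% of the 10396 that belong to tested genes. This motif was singled out after the sequences were seen, so the shares are a description. The palindrome TGACGTCA, which contains the core on both strands, occurs in the promoter of Abce1 and in 2.74% of those of tested genes. CCAAT was found in 4 of 10 (36.8% of tested genes), and CACGTG, CCGGAAGT, AAGATGGC, GCATGCGC and TGATGNAA in 0 of 10 (8.36%, 5.92%, 1.99%, 4.45% and 1.98%). The 120 bases before the start site of 5 of the genes are printed in the direction of transcription (RefSeq, GRCm38.p6), with TGACGT, TGACGTCA and CCAAT on either strand in capitals. The first 4 show where the core lies, and Gtpbp2 is printed as a promoter with none of these letters, as is also the case for Ascc2.
Abce1 (chr8:79711741-79711860, minus strand): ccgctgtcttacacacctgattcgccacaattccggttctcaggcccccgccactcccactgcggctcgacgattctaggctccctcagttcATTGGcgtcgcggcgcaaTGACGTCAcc
Ascc3 (chr10:50592549-50592668, plus strand): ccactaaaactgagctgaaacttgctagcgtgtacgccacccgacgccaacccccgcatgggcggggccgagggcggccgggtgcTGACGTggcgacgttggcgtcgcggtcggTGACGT
Zfp598 (chr17:24669567-24669686, plus strand): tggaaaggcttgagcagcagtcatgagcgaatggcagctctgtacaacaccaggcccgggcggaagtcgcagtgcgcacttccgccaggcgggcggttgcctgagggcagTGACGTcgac
Hbs1l (chr10:21295859-21295978, plus strand): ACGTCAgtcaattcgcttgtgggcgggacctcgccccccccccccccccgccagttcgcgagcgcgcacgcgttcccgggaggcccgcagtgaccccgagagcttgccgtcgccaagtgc
Gtpbp2 (chr17:46160912-46161031, plus strand): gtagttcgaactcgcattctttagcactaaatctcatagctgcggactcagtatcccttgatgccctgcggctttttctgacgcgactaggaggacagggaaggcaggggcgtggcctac
The element begins 10 bases before the start site in Abce1 and in Zfp598, at 35 and again at 6 bases before it in Ascc3, and at 120 bases before it in Hbs1l. The genes with the core differed in their calls against control cells. Abce1, Pelo and Ascc3 were above the control level in HD-homo cells, Zfp598 was lower and Hbs1l did not pass the threshold. Between the HD lines, Abce1, Pelo, Ascc3 and Hbs1l were higher in HD-homo cells, and Zfp598 did not pass. Of the genes without the core, Ltn1, Gtpbp1 and Ascc2 were also higher there, Gtpbp2 was lower and Nemf did not pass.

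A further 60 genes of the pathway were listed in 7 groups by role, and all 60 were tested. Against control cells, 17 were higher and 12 lower in HD-homo cells, and 16 were higher and 24 lower in HD-het cells, with medians of 0.022 and -0.090 on the log2 scale. Of all tested genes, 29.6% were higher and 28.9% lower in HD-homo cells (58.6% in either direction), and 33.8% were higher and 31.4% lower in HD-het cells (65.1% in either direction), against 48.3% and 66.7% of the 60 genes in either direction. Between both HD lines, 24 were higher and 12 lower in HD-homo cells, 60.0% of the list in either direction. Of all tested genes, 36.0% were higher and 35.6% lower in that comparison (71.6% in either direction). The lists were written with earlier results of these data known.

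The list with the most lower calls in HD-het cells was that of no-go and nonstop mRNA decay, which destroys the mRNA on which a ribosome has stalled. It was also the longest list. It holds 11 genes of the RNA exosome, a complex that degrades RNA, and 10 of these were among the lower genes. Whether the decay of stalled mRNA differed was not tested. Of its 17 genes, 14 were lower and 1 higher than in control cells, against a background of 31.4% lower and 33.8% higher, with a median of -0.40 on the log2 scale. Against control cells, 4 were higher and 4 lower in HD-homo cells, with a median of 0.027. This is 47.1% of the list, against 58.6% of all tested genes. Exosc1, a subunit of the RNA exosome, was at 69.0 ± 0.823 CPM (SD, n = 3) for control cells, 37.9 ± 4.29 for HD-het cells and 61.3 ± 4.81 for HD-homo cells (log2 fold change -0.86 in HD-het cells, edgeR adjusted p = 5.39e-06). Exosc2 was lower in HD-het cells (log2 fold change -0.37, edgeR adjusted p = 0.00999) and higher in HD-homo cells by 0.45 (edgeR adjusted p = 0.00389). Wdr61, a subunit of the SKI complex that feeds mRNA to the exosome, was lower in both, with log2 fold changes of -0.45 (HD-het) and -0.41 (HD-homo) (edgeR adjusted p = 1.14e-04 and 2.42e-04). The higher gene was N4bp2, whose yeast and worm relatives cut stalled mRNA (log2 fold change 0.30, edgeR adjusted p = 0.0109).

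Among 9 collision sensors and signalling genes, 2 were higher and 1 lower in HD-homo cells, and 2 were higher and 2 lower in HD-het cells. These are 33.3% and 44.4% of the list, below the 58.6% and 65.1% of all tested genes. Impact, an inhibitor of the Gcn2 stress kinase pathway, fell in HD-homo cells by 1.53 on the log2 scale (edgeR adjusted p = 3.17e-07), from 114 ± 0.683 CPM (SD, n = 3) in control cells to 39.4 ± 7.19. In HD-het cells Impact was at 127 ± 6.72 CPM and did not pass (edgeR adjusted p = 0.212, and 0.0283 when only the lines compared were fitted). Map3k20, which encodes the collision-activated kinase ZAK, was higher in HD-het cells by 0.87 (edgeR adjusted p = 1.99e-07) and in HD-homo cells by 0.38 (edgeR adjusted p = 1.03e-04). Edf1, a collision sensor that recruits translational repressors, was higher in HD-homo cells by 0.44 (edgeR adjusted p = 0.0012). Rack1, a small-subunit protein at the collision interface, was lower in HD-het cells (log2 fold change -0.37, edgeR adjusted p = 6.29e-04).

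A list of 9 genes covered ubiquitin ligases and deubiquitinases of the small subunit. It also held G3bp1, which is neither, and Rnf14, a ligase for other targets. Of the 9, 4 were higher and 1 lower in HD-homo cells, and 4 were higher and 3 lower in HD-het cells. These are 55.6% and 77.8% of the list, against 58.6% and 65.1% of all tested genes. Mkrn1, a ligase linked to stalling at poly(A), was higher in both HD lines, by 0.52 in HD-homo and 0.57 in HD-het cells (edgeR adjusted p = 2.34e-04 and 1.01e-04). Rnf14, a ligase for translation factors trapped on stalled ribosomes, was higher in HD-het cells by 0.74 (edgeR adjusted p = 7.96e-07). G3bp1, a partner of the deubiquitinase Usp10, was lower in HD-het cells (log2 fold change -0.55, edgeR adjusted p = 3.94e-05). Usp21 was lower in HD-homo cells (log2 fold change -0.22, edgeR adjusted p = 0.0131), a call lost without control replicate 2 (edgeR adjusted p = 0.052).

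Of the 2 other ASC-1 subunits, Trip4 was higher in both HD lines, by 0.39 in HD-homo and 0.31 in HD-het cells (edgeR adjusted p = 0.00113 and 0.00368). Ascc1 did not pass in either line, with log2 fold changes of -0.19 and -0.21. Among 8 genes that extract the unfinished chain, degrade its tail or release it, 2 were higher and 3 lower in HD-homo cells, and 2 were higher and 2 lower in HD-het cells (5 and 4 of the 8 in all). Rchy1, a ligase for alanine-tailed chains, was higher in both HD lines, by 0.38 in HD-homo and 0.32 in HD-het cells (edgeR adjusted p = 5.84e-04 and 0.00161). Nploc4, a cofactor of the segregase Vcp, was lower in HD-het cells (log2 fold change -0.41, edgeR adjusted p = 2.26e-05). Ankzf1, which releases the chain from its tRNA, was lower in HD-homo cells (log2 fold change -0.32, edgeR adjusted p = 0.0396). That call held under 11 of 18 alternatives. It was lost without control replicate 1 (edgeR adjusted p = 0.185) or 2 (0.0873), without HD-het replicate 1 (0.0563) or 2 (0.0539), without HD-homo replicate 2 (0.0681) or 3 (0.093), and when only the lines compared were fitted (0.067).

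Of 8 genes of UFMylation, a modification of the large subunit at the endoplasmic reticulum, 3 were higher in HD-homo cells and the other 5 did not pass, and 4 were higher and 1 lower in HD-het cells (37.5% and 62.5% of the list). The background for these shares was 58.6% and 65.1% of all tested genes. Ufsp2, a protease of the pathway, was higher in HD-homo cells by 0.64 (edgeR adjusted p = 1.36e-05). It was also higher in HD-het cells, by 0.24 (edgeR adjusted p = 0.0112). That call was lost without replicate 3 of both control and HD-het cells (edgeR adjusted p = 0.0865). Ddrgk1, an adaptor of the UFM ligase, was higher in both HD lines. Its log2 fold changes were 0.51 in HD-het and 0.50 in HD-homo cells (edgeR adjusted p = 7.37e-05 and 9.69e-05). The modifier Ufm1 was lower in HD-het cells (log2 fold change -0.28, edgeR adjusted p = 0.00776). Ufsp1 had the lowest log2 fold change in HD-homo cells, -0.014, and did not pass. Among 7 genes of termination and subunit recycling, 1 was higher and 3 lower in HD-homo cells, and 2 were higher and 2 lower in HD-het cells. This is 57.1% of the list in each line, against 58.6% and 65.1% of all tested genes. Gspt1, a release factor, was higher in HD-homo cells by 0.21 (edgeR adjusted p = 0.0135, and 0.0534 without control replicate 3) and lower in HD-het cells (log2 fold change -0.31, edgeR adjusted p = 0.00102). Mcts2, a relative of the recycling factor Mcts1, was lower in HD-homo cells (log2 fold change -0.77, edgeR adjusted p = 3.32e-04). Denr, which removes tRNA and mRNA from the recycled small subunit, was lower in HD-het cells (log2 fold change -0.76, edgeR adjusted p = 1.52e-05), and Eif2d, which acts at the same step, was higher by 0.29 (edgeR adjusted p = 9.35e-04).

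**Figure D4:**
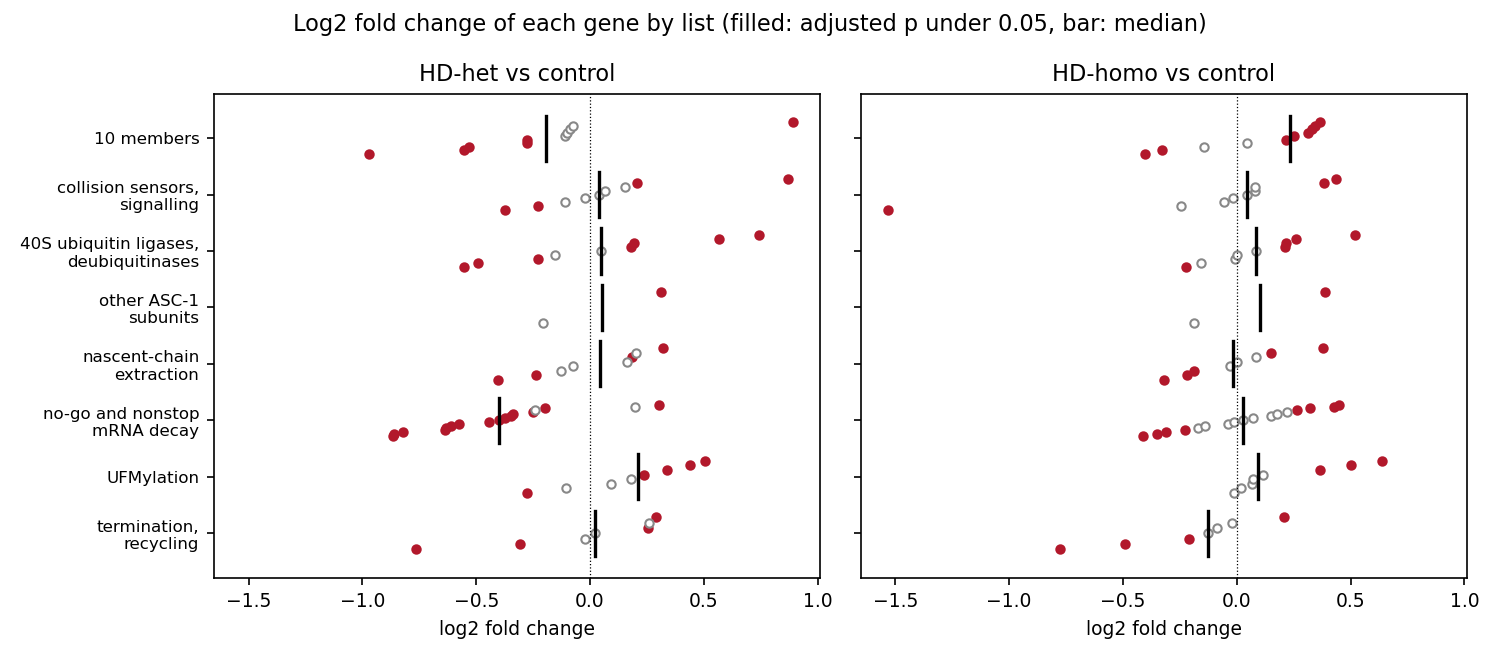
Log2 fold change (x axis) of each of the 10 genes and of the 60 other pathway genes by list (y axis), in HD-het and HD-homo cells against control cells, with filled points for an edgeR adjusted p under 0.05 and bars for medians. The mRNA decay list has its median at -0.40 in HD-het cells and at 0.027 in HD-homo cells.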

How the data were processed

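RNA-seq was done on 9 libraries from 3 striatal cell lines. Per the labels, poly(A) RNA was made into directional libraries, and the processing notes name cutadapt, Bowtie 1.1.2, RSEM 1.3.0, DESeq2, GRCm38.p5 and mm10, with no role or order. The deposited values are whole-number counts per gene symbol, not normalized by the authors, with each library in a column of its own. Whether strand was used in counting is not given in the sources used here.

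The analysis used edgeR 4.0.16 under R 4.3.3, with filterByExpr (minimum count 10) as the filter and TMM normalization. All 9 libraries entered 1 quasi-likelihood fit with a mean for each line, tests were two-sided, and p-values were adjusted by Benjamini-Hochberg over all 13508 tested genes of a comparison. SE is the log2 fold change divided by the square root of F. Ratios were compared by exact permutation tests. Alternatives were other scaling (DESeq2 size factors, library totals), DESeq2 1.42.0, other filters, only the compared lines, a replicate block, each library left out, a prior count of 2, and stricter thresholds. Leaving out replicate 3 of control and HD-het cells together was chosen after seeing the data. The pipeline was tested on simulated data.

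The genes and lists were chosen with earlier results of these data known. Named pathway genes are the highest and lowest of each list in each HD line against control cells, and all of a list of 3 or fewer. Genes whose span overlaps a member are named where they bear on a count, with values where they were counted. Gcn1 is listed as Gcn1l1. Markers of oligodendrocytes summed to at most 2.45 CPM. Positions are from GENCODE on GRCm38 and promoter sequences from RefSeq on GRCm38.p6, matched by symbol for all 10 genes.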

Additional observations from a re-analysis of the deposited data

Results flagged for a closer look

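For 8 of the 10 genes, the effect against control cells differed between the HD lines by a test of the difference itself, the edgeR contrast of HD-homo with HD-het cells. On the log2 scale the effect in HD-homo minus that in HD-het cells was 0.36 for Ltn1, 0.41 for Pelo, 0.58 for Hbs1l, 0.87 for Abce1, 1.19 for Gtpbp1, 0.47 for Ascc3 and 0.43 for Ascc2. It was -1.03 for Gtpbp2. Of all tested genes, 36.0% were higher and 35.6% lower in the same contrast (71.6% in either direction), so 8 of 10 is near the background. The control level drops out of this difference, which is the comparison of both HD lines given above. With 3 libraries per line, no test for outlying libraries was made.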

How the results depend on the processing

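Of 710 log2 fold changes of the 10 genes under the alternatives, 698 kept their direction and their side of the threshold, 8 lost the call, 3 gained it and 1 reversed. Those that lost or gained it are named beside the results. The reversed value was that of Zfp598 between HD-homo and HD-het cells, which ranged from -0.10 to 0.035 when libraries were left out. Requiring a log2 fold change of at least 1 left 0 of the 10 genes in HD-homo and 0 in HD-het cells against control cells, 2 between the HD lines and 1 against the midpoint, by edgeR's test. Of the 60 pathway genes it left 1, 0 and 3 in the first 3 comparisons, and of all genes 2574, 2490 and 3285. Leaving out a library reversed the log2 difference of some ratios whose libraries overlapped. It ranged from -0.085 to 0.097 for Abce1/Pelo in HD-homo against control cells. For Ascc2/Ascc3 it ranged from -0.084 to 0.012 in HD-homo against control cells, from -0.046 to 0.071 in HD-het against control cells and from -0.096 to 0.0078 between the HD lines. The cause was not tested. When only the lines compared were fitted, the number of the 10 genes called stayed at 8, 6 and 8 in the first 3 comparisons. Of all genes, 7521, 9303 and 9066 were called, against 7910, 8797 and 9666 with all lines.

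The labels share replicate numbers between lines, but nothing says that a number marks a shared culture or day, and 4 of 9 same-numbered pairs of libraries had a correlation of their deviations over 0.1 (range -0.00532 to 0.145). Each of the 9 libraries correlated best with its own number, a hint from the data. A replicate block left the number of the 10 genes called at 8, 6, 8 and 8, and gave 8372, 9160 and 9938 of all genes, against 7910, 8797 and 9666 without it.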

Other observations

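The RNA exosome, the complex that degrades RNA from its open end, accounted for most of the mRNA decay list. It was set apart after its values were seen. Of its 11 genes (Exosc1 to Exosc10 and Dis3), 10 were lower in HD-het cells by edgeR's adjusted p, and the median log2 fold change was -0.61. Dis3, a nuclease of the complex, had -0.86 (edgeR adjusted p = 4.79e-06) and Exosc6 had -0.82 (edgeR adjusted p = 2.78e-05). Exosc5 did not pass. Of all tested genes, 31.4% were lower in that comparison. Against control cells, 3 were higher and 2 lower in HD-homo cells, with a median of 0.071. The shares of all tested genes there were 29.6% higher and 28.9% lower. Ttc37, a SKI subunit, was lower in HD-het cells (log2 fold change -0.57, edgeR adjusted p = 1.09e-04) and higher in HD-homo cells (log2 fold change 0.43, edgeR adjusted p = 9.97e-04).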
